A study of Rattus norvegicus with 10 samples.

Results

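The transcripts described are tau, encoded by Mapt, and 9 genes of the kinases best known for phosphorylating it: the cyclin-dependent kinase Cdk5 with its activators Cdk5r1 and Cdk5r2, the glycogen synthase kinases Gsk3a and Gsk3b, and the microtubule affinity-regulating kinases Mark1, Mark2, Mark3 and Mark4. They were chosen by gene symbol, 1 row each, and are 10 of 17168 rows in the deposited count table. All 10 had enough reads to be tested, among 12355 genes, and the lowest expected count of any of them in any library was 270.

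RNA came from the left hippocampus of 10 male transgenic rats of the strain TgF-344AD (genotype Tg-AD), killed at 11 months of age, with 1 library per rat. The untreated group (n = 5) ate rodent chow. The ibudilast group (n = 5) ate chow with ibudilast, which inhibits several phosphodiesterases that break down cyclic nucleotides. Treatment began at 5 months of age and lasted 6 months. All 10 rats carry the transgenes, which in this strain include a human mutant APP under a mouse prion promoter. The strain has no tau transgene, so the Mapt row counts the rat's own gene, and no wild-type rats were analysed here. The ibudilast tissue was stored in a frozen-tissue transition solution (RNAlater-ICE), which the labels give for those 5 samples alone, so treatment and storage cannot be told apart in anything below.

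Tau is a microtubule-associated protein of neurons, most of it in axons, and also of oligodendrocytes. It binds and stabilises microtubules, and it leaves them when it is heavily phosphorylated, the form found in the tangles of Alzheimer's disease. CDK5 is a kinase of postmitotic neurons with no activity on its own: it needs p35 (Cdk5r1) or p39 (Cdk5r2), and calpain can cut p35 to the longer-lived p25. The GSK3 kinases phosphorylate many sites on tau, often after another kinase has primed them, and the MARK kinases phosphorylate its microtubule-binding repeats.

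Library totals ran from 14806807 to 18533520 expected counts. Libraries of 2 kinds stood apart by marker genes fixed for other cell types. Choroid plexus is a tissue within the ventricle beside the hippocampus. The summed level of 6 of its markers was 10477 CPM (the read count normalised to the library total and its TMM factor) in untreated replicate 2 and 8719 CPM in ibudilast replicate 1, against 141 to 564 CPM in the other 8 rats. The summed level of 10 excitatory neuron markers was lowest in untreated replicate 3 within its group, at 5027 CPM, and in ibudilast replicate 4, at 1502 CPM. The value of untreated replicate 3 lay within the ibudilast range of 1502 to 5988 CPM. That library also had the highest sums of microglia (1668 CPM), astrocyte (11073 CPM) and endothelial and mural markers (701 CPM) of all 10 rats. Results were therefore also computed without these 4 libraries.

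With ibudilast, the kinase and 1 activator of CDK5 moved in opposite directions at the RNA level: the activator gene Cdk5r1 fell to 0.507 of its untreated level while the kinase gene Cdk5 rose 1.19-fold. Gsk3b fell to 0.514 of its untreated level and Mark1 to 0.766. Mapt did not pass the test, nor did Cdk5r2, Gsk3a, Mark2, Mark3 or Mark4. By edgeR's quasi-likelihood test, at an adjusted p under 0.05 over all genes tested, 1 of the 10 genes rose, 3 fell and 6 did not pass. Of all genes tested, 47.1% passed, 24.3% higher and 22.8% lower, so that 4 of 10 is a share near the background. The median log2 fold change was -0.204 over the 10 genes and 0.0197 over all genes tested. The 2 groups of rats did not overlap for these same 4 genes, against 33.4% of all genes tested (18% with ibudilast higher and 15.4% with it lower).

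**Figure D1:**
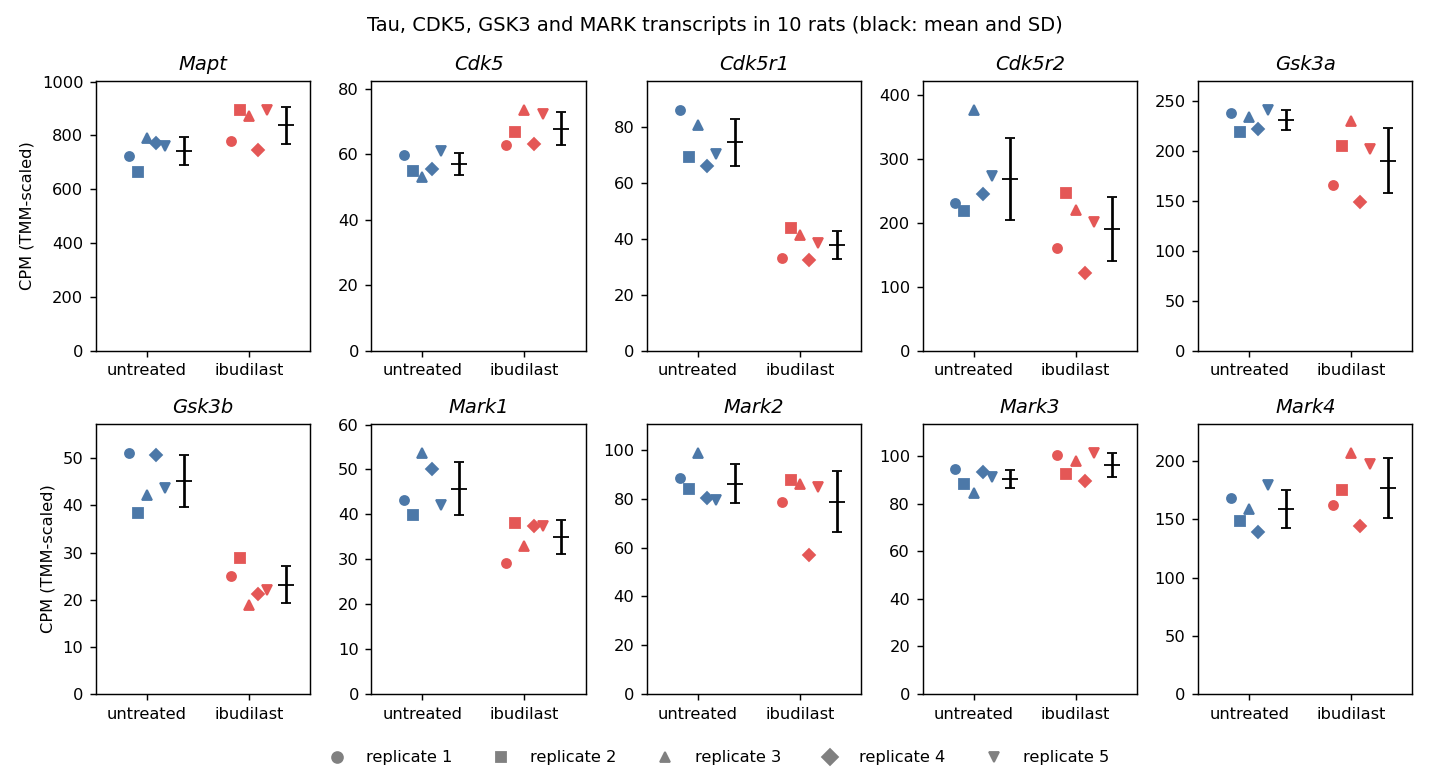
CPM of the 10 genes in each rat, 1 panel per gene with its own axis from 0. Each symbol is a replicate number, and the black mark and bar are the group mean and SD (n = 5). The 5 ibudilast rats lie below all untreated rats for Cdk5r1, Gsk3b and Mark1 and above them for Cdk5.

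The promoters of the 4 genes that passed are shown because ibudilast acts on cyclic AMP, whose transcription factor CREB binds the cAMP response element. They are the 250 bases before the RefSeq gene start in the build GRCr8, 5′ to 3′ on the gene's strand, with matches to any of 5 motifs in capitals. The submitters' processing notes name the build rn6 for the counts, and no position was carried over. RefSeq's promoter table matched 9 of the 10 genes by symbol, without Mapt. It holds 1 start per gene, and whether that is the start used in brain was not tested. For Gsk3b, whose window has 34.4% G and C bases against a median of 51.2% over all promoters, the printed window may not be the main promoter in hippocampus.
Cdk5r1, chr10:65981765-65982014, strand plus: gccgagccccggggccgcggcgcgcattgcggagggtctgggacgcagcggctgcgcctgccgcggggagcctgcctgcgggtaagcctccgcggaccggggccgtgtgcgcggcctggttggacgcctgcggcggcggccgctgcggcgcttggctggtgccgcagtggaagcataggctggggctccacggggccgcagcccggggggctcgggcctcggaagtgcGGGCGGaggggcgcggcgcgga
Gsk3b, chr11:76153250-76153499, strand minus: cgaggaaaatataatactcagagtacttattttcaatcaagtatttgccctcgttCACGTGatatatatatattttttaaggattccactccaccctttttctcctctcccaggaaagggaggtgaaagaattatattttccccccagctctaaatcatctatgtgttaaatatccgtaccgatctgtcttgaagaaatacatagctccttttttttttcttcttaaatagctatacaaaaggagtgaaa
Mark1, chr13:99086702-99086951, strand minus: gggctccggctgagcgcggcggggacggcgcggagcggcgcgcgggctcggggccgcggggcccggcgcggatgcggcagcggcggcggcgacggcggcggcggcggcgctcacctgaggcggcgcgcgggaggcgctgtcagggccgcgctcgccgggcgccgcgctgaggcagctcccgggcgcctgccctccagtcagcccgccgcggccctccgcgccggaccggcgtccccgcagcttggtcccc
Cdk5, chr4:11646874-11647123, strand plus: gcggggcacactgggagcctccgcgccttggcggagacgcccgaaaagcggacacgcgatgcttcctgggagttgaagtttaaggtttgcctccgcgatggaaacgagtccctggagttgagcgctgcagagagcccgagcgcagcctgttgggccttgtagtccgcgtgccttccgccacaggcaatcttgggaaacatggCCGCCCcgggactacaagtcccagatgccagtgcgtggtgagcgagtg

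The full cAMP response element, TGACGTCA, was in 0 of the 9 windows and in 1.59% of all 33469 RefSeq promoters of that length, searched on both strands. Its half-site TGACG, which lies within the full element, was in the windows of Cdk5r2, 189 bases before the start, and Gsk3a, 149 bases before it, and in 18.2% of all promoters. The GC box GGGCGG was in the windows of Cdk5, Cdk5r1, Cdk5r2, Gsk3a, Mark3 and Mark4 and in 30.5% of all. The E-box CACGTG was in that of Gsk3b and in 5.59% of all, and the TATA box TATAAA was in 0 of the 9 and in 12.9% of all.

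Mapt was at 724, 662, 790, 772 and 762 CPM in untreated replicates 1 to 5 and at 779, 895, 872, 746 and 895 CPM in ibudilast replicates 1 to 5. The groups overlapped: ibudilast replicates 1 and 4 lay within the untreated range, and the other 3 lay above it. The means were 742 ± 50.7 and 837 ± 69.8 CPM (SD, n = 5 each), a log2 fold change of 0.17 ± 0.09 (SE, adjusted p = 0.137 by edgeR). The 95% interval of the fold change ran from 0.983 to 1.29. Mapt passed as higher without the 4 libraries that stood apart (0.24, adjusted p = 0.0108) and when libraries were scaled by their totals alone (0.24, adjusted p = 0.0205). The row sums all Mapt transcripts, so forms with 3 and 4 microtubule-binding repeats were not separated.

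Tau was also set against 3 other neuronal microtubule-associated proteins within each rat. All 3 fell (Map2 by 1.94, Map1b by 0.94 and Map1a by 0.64 on the log2 scale) while Mapt did not pass, so most of each shift below is that of the partner. Of 4 other microtubule-associated proteins, not used as partners and named after their values were seen, Map7 rose by 0.94, and Map4, Map6 and Map1s did not pass, at log2 fold changes of -0.10, 0.24 and 0.09. The log2 ratio of Mapt to Map2, the main dendritic protein of the same family, went from -0.70 ± 0.27 to 1.39 ± 0.19 (SD, n = 5 each), a rise of 2.09, or 4.26-fold. Against Map1a, a protein of mature axons and dendrites, the ratio of Mapt rose by 0.81, and against Map1b, which is prominent in growing axons, by 1.11. Each of these 3 ratios had an adjusted p of 0.0147 over 13 ratios tested (exact permutation test, two-sided, over every assignment of the 10 rats to groups of 5, smallest p possible 0.00794), and the groups did not overlap in any of the 3. Because all 3 partners fell in these same libraries, these p-values are no separate evidence of a change in Mapt. Transcript lengths were not used, so the level of such a ratio has no meaning across genes and only its shift between groups is read.

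**Figure D2:**
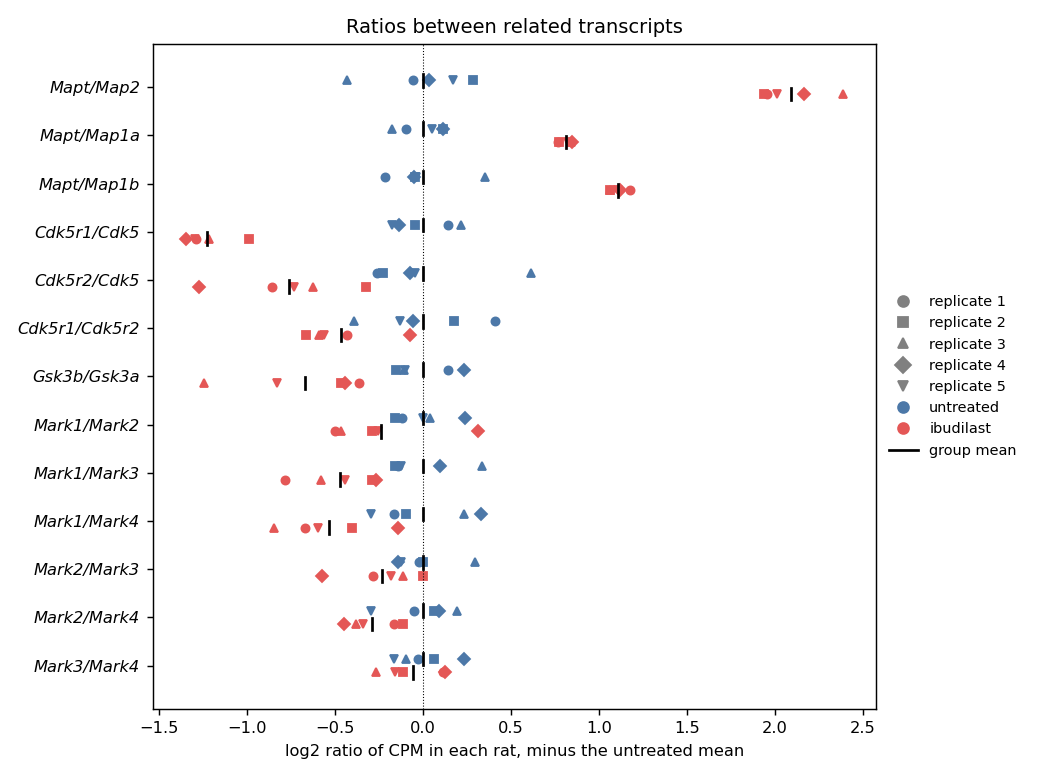
Log2 ratio of CPM between 2 related transcripts in each rat, with the mean of the untreated rats subtracted, for the 13 ratios tested. Symbols are replicate numbers, colours are groups and black ticks are group means. The ratios of Mapt to Map2, Map1a and Map1b lie to the right in all 5 ibudilast rats, and those of Cdk5r1 to Cdk5 and Gsk3b to Gsk3a to the left.

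Cdk5 was at 59.8, 55.01, 53.2, 55.7 and 61.1 CPM in untreated replicates 1 to 5 and at 62.8, 66.9, 73.6, 63.3 and 72.5 CPM in ibudilast replicates 1 to 5. Every ibudilast rat was above every untreated rat, though by a narrow gap. The means were 57.0 ± 3.35 and 67.8 ± 5.05 CPM (SD, n = 5 each), a log2 fold change of 0.25 ± 0.07 (SE, adjusted p = 0.0129).

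Cdk5r1, which encodes p35, and Gsk3b fell by amounts within 1 SE of each other. Cdk5r1 was at 86.2, 69.4, 80.7, 66.2 and 70.6 CPM in untreated replicates 1 to 5 and at 33.3, 43.9, 41.3, 32.3 and 38.4 CPM in ibudilast replicates 1 to 5. The groups were far apart, the highest ibudilast rat being well below the lowest untreated one. The means were 74.6 ± 8.45 and 37.8 ± 4.99 CPM, a log2 fold change of -0.98 ± 0.11 (SE, adjusted p = 7.12e-05), which placed it at percentile 3.46 of all fold changes.

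Cdk5r2, which encodes p39, was more variable. It was at 230, 217, 376, 244 and 274 CPM in untreated replicates 1 to 5 and at 160, 247, 220, 121 and 201 CPM in ibudilast replicates 1 to 5. The groups overlapped, untreated replicate 3 was the highest of all and ibudilast replicate 4 the lowest. The log2 fold change was -0.50 ± 0.21 (SE, adjusted p = 0.0689). Without the 4 libraries, which include both of those rats, it was -0.16 (adjusted p = 0.165), while it passed without untreated replicate 2 (-0.59, adjusted p = 0.0454), without ibudilast replicate 2 (-0.61, adjusted p = 0.0409) and by DESeq2 (-0.52, adjusted p = 0.0326).

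Within rats, both activators fell relative to the kinase. The log2 ratio of Cdk5r1 to Cdk5 went from 0.38 ± 0.17 to -0.85 ± 0.14 and that of Cdk5r2 to Cdk5 from 2.21 ± 0.35 to 1.44 ± 0.35 (SD, n = 5 each; exact permutation test, adjusted p = 0.0147 for both). The groups did not overlap in either ratio. Because Cdk5r1 fell and Cdk5 rose without overlap in these same libraries, the result of their ratio was fixed by those 2 calls. It is no separate evidence of a change. Cdk5r1 also fell relative to Cdk5r2, by 0.47 on the log2 scale, with overlapping groups (exact permutation test, adjusted p = 0.0413). That last call was lost on leaving out any 1 rat other than untreated replicate 5 or ibudilast replicate 4, at -0.36 to -0.56, and the shift of Cdk5r2 to Cdk5 was -0.43 without the 4 libraries.

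Of the GSK3 kinases, Gsk3b fell and Gsk3a did not pass. Gsk3b was at 51.1, 38.3, 42.2, 50.7 and 43.6 CPM in untreated replicates 1 to 5 and at 25.0, 28.9, 18.8, 21.2 and 22.0 CPM in ibudilast replicates 1 to 5, with no overlap. The means were 45.2 ± 5.55 and 23.2 ± 3.88 CPM, a log2 fold change of -0.96 ± 0.13 (SE, adjusted p = 1.83e-04).

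Gsk3a was at 239, 220, 234, 222 and 241 CPM in untreated replicates 1 to 5 and at 166, 205, 230, 149 and 202 CPM in ibudilast replicates 1 to 5. Ibudilast replicate 3 lay inside the untreated range and the other 4 below it. The ibudilast rats were also more spread, at a coefficient of variation of 17.2% against 4.23%. The log2 fold change was -0.28 ± 0.11 (SE, adjusted p = 0.0629), and -0.14 (adjusted p = 0.138) without the 4 libraries. It passed without untreated replicate 2 (-0.32, adjusted p = 0.0459) or ibudilast replicate 3 (-0.36, adjusted p = 0.0211), with RLE factors (-0.30, adjusted p = 0.0459), with no low-count filter (-0.31, adjusted p = 0.0420), by DESeq2 (-0.30, adjusted p = 0.0246) and by limma on the authors' signal (-0.30, adjusted p = 0.0416).

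The 2 paralogs changed unequally. The log2 ratio of Gsk3b to Gsk3a fell by 0.67 ± 0.18 (SE, n = 5 each), from -2.36 ± 0.17 to -3.03 ± 0.37 (SD), and the groups did not overlap (exact permutation test, adjusted p = 0.0147). Without the 4 libraries the shift was -0.94, with 3 rats a group and a smallest possible p of 0.1.

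Among the 4 MARK kinases only Mark1 passed. Mark1 was at 43.1, 39.9, 53.6, 50.04 and 42.1 CPM in untreated replicates 1 to 5 and at 29.2, 38.0, 32.9, 37.4 and 37.4 CPM in ibudilast replicates 1 to 5. The groups did not overlap, but untreated replicate 2 and ibudilast replicate 2 lay close together. The log2 fold change was -0.39 ± 0.11 (SE, adjusted p = 0.0118).

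Mark2, also known as Par-1b and active in neuronal polarity, was at 79.4 to 98.7 CPM in the untreated rats and at 57.1 to 87.9 CPM in the ibudilast rats, with the low end set by ibudilast replicate 4. Its log2 fold change was -0.13 ± 0.12 (SE, adjusted p = 0.395) and changed sign, to 0.059 (adjusted p = 0.474), without the 4 libraries. Mark3 was at 84.7 to 94.6 CPM and at 89.6 to 101 CPM (0.09 ± 0.06, adjusted p = 0.228), and passed with upper-quartile factors (0.14, adjusted p = 0.0483). Mark4, which is abundant in brain, was at 139 to 180 CPM and at 144 to 207 CPM (0.16 ± 0.11, adjusted p = 0.268). All 3 overlapped between the groups, and the 95% intervals of their fold changes were 0.764 to 1.09, 0.973 to 1.17 and 0.942 to 1.32.

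In ratios within rats, Mark1 fell relative to Mark3 by 0.47 ± 0.14 (SE; exact permutation test, adjusted p = 0.0147), with no overlap. It fell relative to Mark4 by 0.53 ± 0.17 and Mark2 relative to Mark4 by 0.29 ± 0.11, both with overlapping groups (exact permutation test, adjusted p = 0.0387 and 0.0413). The call of Mark1 to Mark4 was lost on leaving out any 1 rat other than untreated replicate 5 or ibudilast replicate 4, at -0.45 to -0.58, and that of Mark2 to Mark4 on leaving out any 1 rat other than untreated replicate 5, at -0.24 to -0.34. Mark1 to Mark2 (-0.24 ± 0.16, exact permutation test, adjusted p = 0.181), Mark2 to Mark3 (-0.23 ± 0.13, 0.113) and Mark3 to Mark4 (-0.06 ± 0.10, 0.563) did not pass. Mark1 to Mark2 passed without ibudilast replicate 4 (-0.38, exact permutation test, adjusted p = 0.0206), and Mark2 to Mark3 was at -0.0029 without the 4 libraries. Of the 13 ratios 10 passed, 3 higher and 7 lower. The 3 higher are those of Mapt, whose partners all fell. Many of the ratios share a gene, and no share of passing ratios was computed for other gene pairs. The count therefore only describes these 13 and is no measure of how far the families changed.

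**Figure D3:**
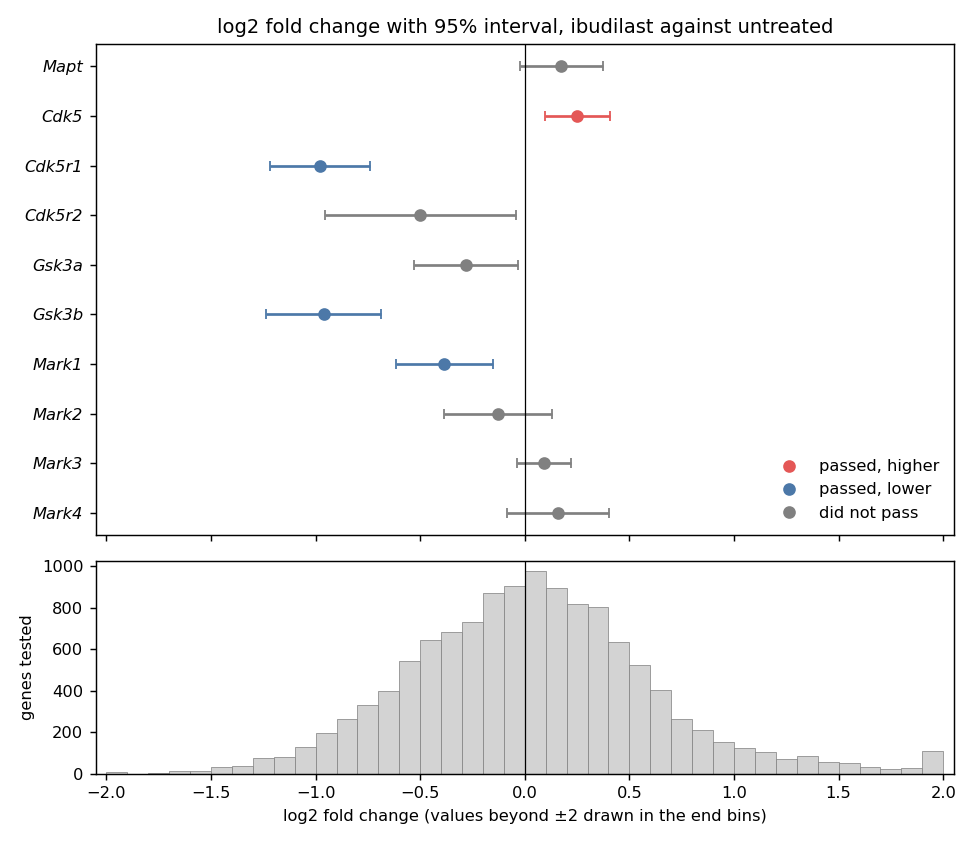
Log2 fold change of each of the 10 genes with its 95% interval (upper panel), above the distribution of log2 fold changes of all 12355 genes tested (lower panel, bins of 0.1). Cdk5r1 and Gsk3b lie in the left tail, near -1, while Mapt, Cdk5, Mark3 and Mark4 lie to the right of 0.

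Libraries at the ends of the ranges were often the same. Ibudilast replicate 4 was the lowest of its group for 7 of the 10 genes and ibudilast replicate 2 the highest for 5, while untreated replicate 2 was the lowest of its group for 5. The 4 genes that passed were also called without the 4 libraries, Cdk5r1 at -0.85 and Gsk3b at -1.06, with Mapt added as higher. All 4 kept their direction and call on leaving out each rat in turn.

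Levels of several sets of cell type markers also differed between the groups. Summed over 10 pan-neuronal markers, the level was 5191 to 7739 CPM in untreated and 3375 to 5162 CPM in ibudilast rats, and 6 of the 10 fell and none rose. Snap25, a protein of synaptic vesicle fusion, fell by 0.86 on the log2 scale, and Rbfox3, the nuclear antigen NeuN, was at -0.34 (adjusted p = 0.188). Of 12 oligodendrocyte markers 5 rose and none fell, with sums of 8004 to 15572 CPM and of 16128 to 19203 CPM. Sums of 10 excitatory neuron markers were 5027 to 7780 and 1502 to 5988 CPM, with 3 lower. Of 10 inhibitory neuron markers 3 fell and 1 rose. Of 9 astrocyte markers 4 fell, of 10 microglia markers 6, of 10 endothelial and mural markers 6, of 6 oligodendrocyte precursor markers 2 and of 6 choroid plexus markers 0, and none of these rose. Over all genes tested 22.8% fell and 24.3% rose. The shares lower of excitatory neuron, inhibitory neuron and oligodendrocyte precursor markers, 30%, 30% and 33.3%, were near that background. Markers of neurons were present in all 10 libraries, which fits the labelled tissue. In bulk tissue fewer cells of a type and less RNA per cell cannot be told apart, and the part of cell composition in the changes above was not tested.

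Other kinases reported to act on tau, or on the MARK kinases, mostly fell. Of 30 in a fixed list 29 were measured, and 16 fell, 3 rose and 10 did not pass (median log2 fold change -0.424). That is 55.2% lower and 10.3% higher, against 22.8% and 24.3% of all genes tested. This list and those below were chosen with earlier results of these data known, so such gaps are a description and were not tested. Camk2a, which fell, is in this list and also among the excitatory neuron markers above. Dyrk1a, which primes tau for GSK3, went from 70.8 ± 2.42 to 46.3 ± 3.33 CPM (SD, n = 5 each), and Prkacb, a catalytic subunit of protein kinase A, from 96.3 ± 12.4 to 44.7 ± 8.27 CPM. Its more abundant paralog Prkaca did not pass, at 215 ± 24.0 and 181 ± 18.3 CPM. Of those that rose, Rock1 was higher by 0.95 and Stk11, the kinase LKB1 that activates the MARK family, by 0.50 on the log2 scale. Rock2, the more abundant paralog of Rock1, fell from 300 ± 29.3 to 177 ± 34.9 CPM.

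Phosphatases and their regulators mostly fell too. Of 20 measured, 12 fell, 2 rose and 6 did not pass (median -0.298). That is 60% lower and 10% higher, against 22.8% and 24.3% of all genes tested. Those that fell include Ppme1, Set and Anp32a, which act against the phosphatase PP2A (-0.50, -0.27 and -0.29). The share lower is thus not a measure of phosphatase activity. Ppp3cb, a catalytic subunit of calcineurin, went from 417 ± 77.8 to 165 ± 39.3 CPM, Ppp1cb of protein phosphatase 1 from 343 ± 59.3 to 190 ± 22.5 CPM, and Ppp2ca, a catalytic subunit of PP2A, the main tau phosphatase, from 412 ± 35.9 to 285 ± 25.8 CPM. Ppp1ca rose by 0.31 (adjusted p = 0.0262). It no longer passed when untreated replicate 2 or 4, or ibudilast replicate 2, 3 or 5, was left out (0.25 to 0.31, adjusted p = 0.0523 to 0.0650) and with the replicate block (0.30, adjusted p = 0.0514).

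**Figure D4:**
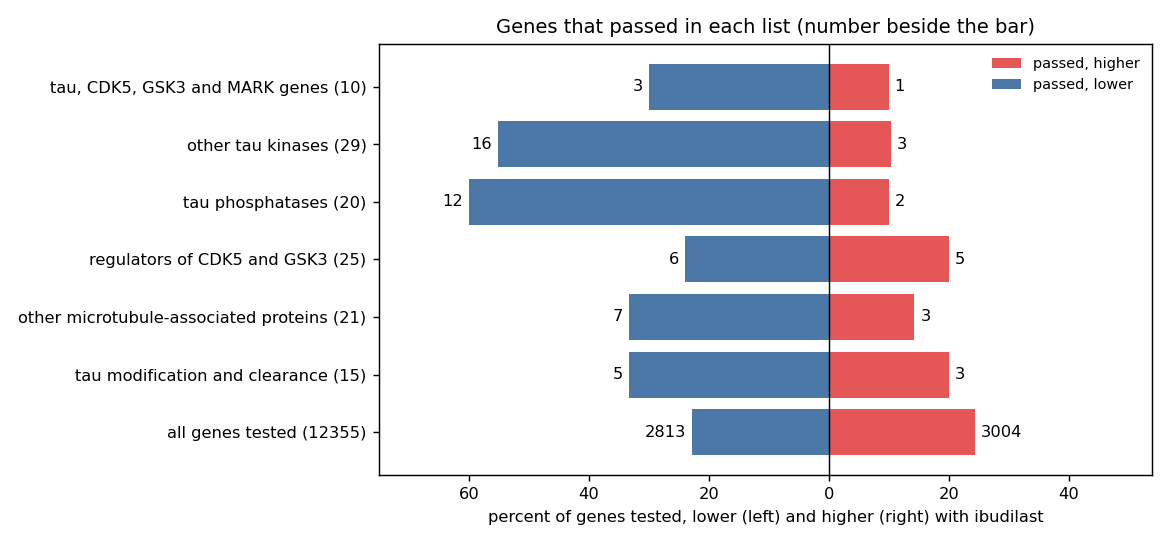
Percent of the genes tested in each list that passed as lower (left) or higher (right) with ibudilast, with the number of genes beside each bar and the number tested in brackets. The lists of other tau kinases and of phosphatases have 16 of 29 and 12 of 20 genes lower, against 2813 of 12355 over all genes tested. The lists were chosen with earlier results of these data known, and the differences were not tested.

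Regulators of CDK5 and GSK3 moved both ways: of 25 measured, 5 rose, 6 fell and 14 did not pass (median -0.067). The called shares, 20% higher and 24% lower, were near the 24.3% and 22.8% of all genes tested. Without the 4 libraries 10 fell. Ctnnb1, the beta-catenin that GSK3 marks for destruction, went from 303 ± 19.9 to 148 ± 11.3 CPM. Pdpk1, which activates AKT upstream of GSK3, fell by 1.16 on the log2 scale. Cdk5rap3 rose by 0.76, and Dvl1 and Dvl2, which relay Wnt signals to GSK3, rose by 0.76 and 0.73. Their paralog Dvl3 fell, at a log2 fold change of -0.45.

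Of 21 other microtubule-associated proteins and regulators 7 fell, 3 rose and 11 did not pass (median -0.212). The share lower was 33.3% and the share higher 14.3%, against 22.8% and 24.3% of all genes tested. Map2, Map1b and Mapre2, an end-binding protein, fell by 1.94, 0.94 and 0.63 on the log2 scale. Map7, a recruiter of kinesin to microtubules, rose from 119 ± 13.3 to 230 ± 10.2 CPM, and the stathmins Stmn4 and Stmn3 rose by 0.49 and 0.37. The call of Stmn3 (adjusted p = 0.0279) was lost without untreated replicate 2, 3 or 4 or ibudilast replicate 3, 4 or 5 (0.30 to 0.38, adjusted p = 0.0543 to 0.0786), with no low-count filter (0.34, adjusted p = 0.0517) and with the replicate block (0.37, adjusted p = 0.0839).

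Of 15 measured genes of tau modification and clearance, 5 fell, 3 rose and 7 did not pass (median -0.149), or 33.3% lower and 20% higher against 22.8% and 24.3% of all genes tested, and 3 fell with the replicate block or without untreated replicate 5. The enzymes that add and remove O-GlcNAc, a sugar that competes with phosphate on tau, moved in opposite directions: Ogt, which adds it, rose by 0.27 (adjusted p = 0.0168) and Mgea5, which removes it, fell from 120 ± 9.07 to 65.9 ± 6.10 CPM. The call of Ogt was lost without untreated replicate 2 (0.25, adjusted p = 0.0565) and without the 4 libraries (0.15, adjusted p = 0.0920). Bin1, a membrane-curving protein and Alzheimer risk gene, and Stub1, the ubiquitin ligase CHIP that acts on tau, rose by 0.51 and 0.39. The proteasome-bound deubiquitinase Usp14 and the chaperone Hspa8 fell by 0.85 and 0.51.

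Genes whose levels varied most like 3 of the 10 genes between rats of a group were ranked by Pearson's r of log2 CPM after each group mean was subtracted, over 10 libraries and 10277 genes with a mean of at least 5 CPM. For Mapt these were Ankrd12 (r = 0.959), Ptpn5 (0.955), Nme1 (0.947), Asic2 (0.941) and Cyfip2 (0.936). For Cdk5r1 they were Ppm1h (0.931), Adat2 (0.926), Slc38a7 (0.921), Zc3h18 (0.919) and Mtor (0.913). For Gsk3b they were RGD1305110 (0.955), Arrdc3 (0.947), Wdfy3 (0.932), Klf7 (0.932) and Rc3h2 (0.931). These are the highest of many values over few libraries and are given as a description. Among the 5 genes named beside Mapt, Ptpn5 was higher with ibudilast, with a log2 fold change of 0.77 (adjusted p = 2.81e-04), and Cyfip2 lower, with -0.83 (adjusted p = 0.00312). Beside Cdk5r1, Ppm1h and Mtor were lower, at -0.69 and -0.27. Beside Gsk3b, RGD1305110, Wdfy3 and Rc3h2 were lower, at -0.47, -0.49 and -0.76. The remaining genes named beside these 3 did not pass.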

How the data were processed

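Poly(A) RNA of 10 rat hippocampi was sequenced after RNA isolation on columns and stranded library preparation, per the labels' protocols. Of the 2 deposited tables, one holds expected counts for each gene symbol without normalization and the other a signal in which the authors divided counts by TMM-scaled library sizes, per the file headers and values. RSEM 1.2.15, Bowtie2 2.1.0, bcl2fastq, edgeR and the build rn6 are named in the submitters' processing notes. Annotation, filters and the strand setting of the counting are not given in the sources used here. By symbol in GRCr8, Mapt, Cdk5r1, Gsk3a, Gsk3b and Mark3 overlap another gene, and of these partners the count table holds Nr1i2, beside Gsk3b, at 0 to 17 counts.

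Counts were rounded and fitted over the whole table with edgeR 4.0.16 (limma 3.58.1, R 4.3.3): filterByExpr, TMM factors, robust quasi-likelihood F test, Benjamini-Hochberg adjustment over 12355 genes, threshold 0.05. Every adjusted p of a single gene comes from that test unless another tool is named. CPM used TMM-scaled totals, and log2 CPM a prior count of 2. Ratios were tested by exact permutation (SciPy 1.17.1), adjusted over 13. Named genes were all 10 members and, per list, up to 3 higher and 3 lower by smallest adjusted p and a mean of 5 CPM or more in either group. Results of some genes that this rule names are left out. Ppme1, Set, Anp32a, Rock2, Prkaca and Dvl3 were named outside this rule, after their values were seen. The members and lists were chosen with earlier results of these data known. Replicates are separate rats per the labels, and no 2 libraries of a group agreed within sampling noise (lowest chi-square per gene 11.5). Replicate numbers did not pair the rats, so no block was used. Whole reads were recovered from 100% of the authors' signal values within 0.01, an alternative chosen after seeing the data, and 5817 genes passed on them. Other settings tried were RLE factors, upper-quartile factors, none, other low-count filters, DESeq2 1.42.0, limma-voom, limma on log2 of the signal plus 1, a replicate block, and leaving out rats.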

Additional observations from a re-analysis of the deposited data

Results flagged for a closer look

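Of 46 sets of 5 values examined, 1 had a rat far from the others: the log2 ratio of Cdk5r2 to Cdk5 was 2.82 in untreated replicate 3, against 1.94 to 2.16 in the other untreated rats. By chance about 1 set in 20 is marked by this criterion. That rat had the highest Cdk5r2 of all 10, 376 CPM, and without it the ratio still fell with ibudilast, by 0.61 on the log2 scale (exact permutation test, adjusted p = 0.0295).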

How the results depend on the processing

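The calls of Cdk5, Cdk5r1, Gsk3b and Mark1 kept direction and side of the threshold in all 21 alternatives each, at 0.20 to 0.32, -1.04 to -0.85, -1.06 to -0.89 and -0.45 to -0.31. Mapt passed with library size alone (0.24) and without the 4 libraries (0.24). Gsk3a passed with RLE factors (-0.30), no low-count filter (-0.31), DESeq2 (-0.30) and limma on the authors' signal (-0.30), Cdk5r2 with DESeq2 (-0.52), and Mark3 with upper-quartile factors (0.14). Mark2 changed sign without the 4 libraries (0.059), where the ratio of Mark2 to Mark3 was -0.0029. The number of members higher was 2 in place of 1 with library size alone, with upper-quartile factors and without the 4 libraries, and the number lower was 5 in place of 3 with DESeq2. The cause was not tested. Leaving out 1 rat gave 3 to 5 members lower, Cdk5r2 at -0.61 to -0.37, Gsk3a at -0.36 to -0.23, and the ratios Cdk5r1/Cdk5r2 at -0.56 to -0.36, Mark1/Mark2 at -0.38 to -0.18, Mark1/Mark4 at -0.63 to -0.45 and Mark2/Mark4 at -0.37 to -0.24. With 1 rat fewer the exact test has fewer assignments (smallest p 0.0159). The replicate numbers did not pair the rats (correlations of -0.328 to 0.416, 1 of 5 above 0.1). With a replicate block the members' counts stayed at 1 higher and 3 lower, Mapt was at 0.17 and Cdk5 at 0.25 (adjusted p = 0.0492 by edgeR), 2497 and 2229 genes passed as higher and lower in place of 3004 and 2813, and exact sign flips of the ratios could not go below p = 0.0625.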
